A study of Mus musculus with 3 samples.

Results

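*Ang*, which encodes angiogenin, and *Rnase4*, which encodes ribonuclease 4, are a pair of neighbouring genes of secreted ribonucleases, and they were taken as every probe set that the array's annotation table gives to either symbol or to the pair. This gave 4 of the 45101 probe sets on the array, 3 for *Ang* (Entrez gene 11727) and 1 for *Rnase4* (Entrez gene 58809), and 0 were annotated to both together. The pair was chosen because it stood low in the comparison described here, so the signals of its own probe sets are a description and carry no test. Kidney RNA came from 2 cardio-renal syndrome samples, in which the abdominal aorta was banded below the branches to the kidneys and 1 kidney was removed 2 weeks later, and from 1 sample with uninephrectomy alone. All 3 samples were from male C57BL/6J mice of 16 weeks, all had lost 1 kidney, and the kidney left in place was collected 6 weeks later. Sham operations are mentioned for the study, but the labels do not say whether the uninephrectomy-alone mouse had a sham banding, nor whether a sample is 1 mouse. The question put to these samples was how the kidney's transcripts change when banding of the aorta comes on top of uninephrectomy.

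Angiogenin is a small ribonuclease of the RNase A superfamily, known for stimulating blood vessel growth and for cutting transfer RNAs in their anticodon loops in stressed cells, and its catalytic activity is far weaker than that of pancreatic ribonuclease. Ribonuclease 4 belongs to the same superfamily and prefers to cut after uridine. In the mouse, both proteins are made from transcripts that can begin at the same promoters and are spliced to a separate coding exon for each gene, and both transcripts are abundant in liver and present in many other tissues. The ribonuclease inhibitor encoded by *Rnh1* binds angiogenin tightly in the cytosol, and plexin B2, encoded by *Plxnb2*, is a receptor for it at the cell surface.

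The start regions are shown because the genes of the pair share 1 annotated start, while *Rnase4* also has a start of its own with another sequence. The RefSeq promoter table for GRCm38.p6 held windows of 250 bases before to 50 bases after each annotated start for both genes, on the plus strand of chromosome 14. *Ang* and *Rnase4* shared the window chr14:51090827-51091126, and *Rnase4* had a further one, chr14:51095750-51096049, whose start lies 4923 bases downstream. Of 27025 genes with a window, 67 (0.248%) shared one with another gene. Capitals mark the motif matches described after the sequences.
Shared start of Ang and Rnase4: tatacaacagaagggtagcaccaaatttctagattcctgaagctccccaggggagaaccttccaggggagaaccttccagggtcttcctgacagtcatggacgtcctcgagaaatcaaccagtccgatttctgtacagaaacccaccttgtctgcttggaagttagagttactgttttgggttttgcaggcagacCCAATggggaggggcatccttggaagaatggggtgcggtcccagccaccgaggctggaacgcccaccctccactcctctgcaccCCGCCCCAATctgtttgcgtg
Second start of Rnase4: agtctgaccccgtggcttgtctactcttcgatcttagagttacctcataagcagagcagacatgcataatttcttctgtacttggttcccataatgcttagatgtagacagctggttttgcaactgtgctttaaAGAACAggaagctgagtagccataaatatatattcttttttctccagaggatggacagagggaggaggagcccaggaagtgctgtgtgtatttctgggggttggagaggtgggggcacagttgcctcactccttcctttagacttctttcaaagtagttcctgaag

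The shared window was searched on both strands for 11 short motifs. It held the CCAAT box (CCAAT) at bases 196 to 200 and 285 to 289, counted from 1 at the window's 5′ end, and the GC box (GGGCGG, here on the other strand) at bases 280 to 285, where it overlaps the second CCAAT by 1 base. CCAAT stood in 37.4% and GGGCGG in 35.9% of the 32544 distinct promoter windows of the table. The second *Rnase4* window held 1 match, the steroid receptor hexamer (AGAACA) at bases 135 to 140, which stood in 18.9% of all windows. Neither window held the TATA box (TATAAA, in 13.6% of all windows), the STAT site (TTCNNNGAA, 8.33%), the E-box (CACGTG, 7.17%), the GATA site (AGATAA, 11.2%), the AP-1 site (TGANTCA, 7.79%), the cyclic AMP response element (TGACGTCA, 1.80%), the HNF4 site (CAAAGTCCA, 0.479%) or the HNF1 core (GTTAATNAT, 0.808%). The GC content was 54.7% in the shared window and 45.3% in the second *Rnase4* window, beside a median of 53% over all windows.

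All 4 probe sets had lower signals on both cardio-renal arrays than on the uninephrectomy array, and all 4 were lower on cardio-renal array 1 than on array 2. The values are MAS5 signals, a linear measure of brightness, and each array's signals had been scaled by the authors to the same trimmed mean of 500. The *Ang* probe set 1438936_s_at, the one with the highest mean signal of the gene, had signals of 472 and 799.7 in the cardio-renal samples, against 1674 with uninephrectomy alone. These are 28.2% and 47.8% of the uninephrectomy signal. On the scale log2(signal + 28.8), used for all differences here, the mean difference was -1.40 ± 0.51 (SD, n = 2 cardio-renal samples against 1), made up of -1.77 in array 1 and -1.04 in array 2. The offset keeps dim signals from giving extreme ratios and makes their differences smaller than the raw ratio.

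The other *Ang* probe sets gave the same order of samples. Probe set 1438937_x_at had signals of 201 and 417 in the cardio-renal samples, against 775 with uninephrectomy alone, a log2 difference of -1.33 ± 0.68 (SD, n = 2). Probe set 1450717_at had signals of 75.6 and 110.2, against 245 with uninephrectomy alone, a log2 difference of -1.19 ± 0.29 (SD, n = 2). By the maker's naming, the suffix _s_at marks probes that match several transcripts and _x_at marks probes that may bind other sequences too, while _at alone marks probes designed for 1 target. The probe set designed for 1 target was the dimmest of the 3, and the one closest to the offset.

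The *Rnase4* probe set 1422603_at had signals of 591 and 1132 in the cardio-renal samples, against 2262 with uninephrectomy alone. These are 26.1% and 50.02% of the uninephrectomy signal, and the log2 difference was -1.43 ± 0.64 (SD, n = 2), made up of -1.89 in array 1 and -0.98 in array 2. As for *Ang*, each cardio-renal signal was below the uninephrectomy signal, and array 1 was the lowest of the 3. Of all genes kept, 29.7% likewise had each cardio-renal value below that of uninephrectomy, while 30.6% had each one above it. The pair was chosen for its low values, so nothing is read from its side. With 1 uninephrectomy array, the spread among such samples is not known, and the 2-array SD is the only measure of error.

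**Figure D1:**
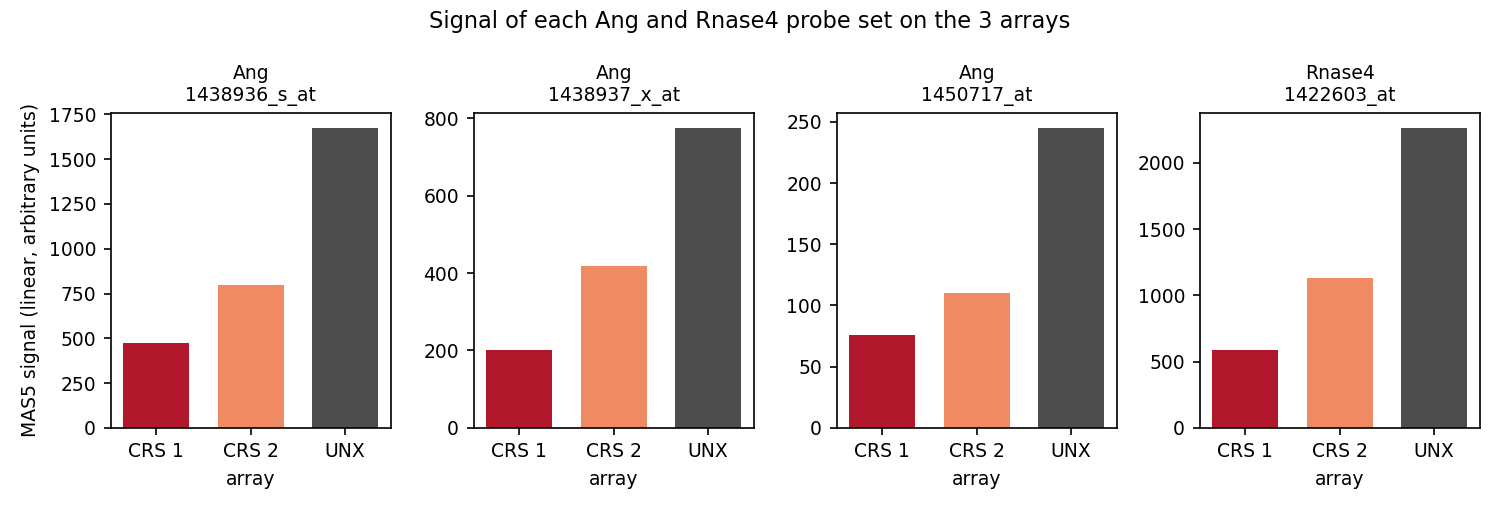
MAS5 signal (linear, from 0) of each *Ang* and *Rnase4* probe set on cardio-renal arrays 1 and 2 (CRS 1, CRS 2) and on the uninephrectomy array (UNX); each bar is 1 array, so there are no error bars, and each panel has its own scale. In all 4 panels the bars fall in the order UNX, CRS 2, CRS 1, with CRS 1 at 25.9% to 30.8% and CRS 2 at 45.0% to 53.8% of UNX.

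Across the 4 probe sets, the signal in array 1 was 25.9% to 30.8% of that with uninephrectomy alone, and the signal in array 2 was 45.0% to 53.8% of it. The log2 difference from uninephrectomy ranged over the probe sets by 0.49 in array 1 and by 0.19 in array 2. The *Rnase4* probe set kept closest to the 2 brighter *Ang* probe sets: its log2 distance to 1438937_x_at varied by 0.13 over the 3 arrays and that to 1438936_s_at by 0.18, while that to 1450717_at varied by 0.49. Within *Ang* itself, the same spread was 0.23 between 1438936_s_at and 1438937_x_at, 0.37 between 1438936_s_at and 1450717_at, and 0.55 between 1438937_x_at and 1450717_at. Both genes were chosen for their low values on these arrays, so nothing is read from how close they lie.

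For each gene the probe set with the highest mean was used. Genes were kept when their mean log2 value over the 3 arrays reached 7.02, the median over all probe sets. This kept 11144 genes, both *Ang* and *Rnase4* among them, and all 4 probe sets of the pair reached that level. The mean includes the uninephrectomy array, and 1450717_at stood at 6.71 and 7.12 in the cardio-renal samples, against 8.10 with uninephrectomy alone. All 4 probe sets stood at least 2-fold below uninephrectomy in array 1. In array 2 they lay on either side of that line, which is -1 on the log2 scale: the *Ang* probe set 1438936_s_at was at -1.04, while 1450717_at was at -0.98, 1438937_x_at at -0.85 and *Rnase4* at -0.98. With a pseudocount of 100 the first of these was at -0.98 too, and the mean of the *Ang* probe sets was at -0.96, so the line does not separate *Ang* from *Rnase4*. Of the 11144 genes, 6 (0.0538%) passed that line on the lower side in both arrays and 15 (0.135%) did so on the higher side. Array 2 alone held 22 genes (0.197%) at least 2-fold below uninephrectomy and array 1 alone held 69 (0.619%). Because the pair was chosen from this contrast, nothing is read from its place in these counts. The order array 1, array 2, uninephrectomy, lowest first, was shared by 1756 genes (15.8%). Array 1 stood below array 2 by at least 0.9 on the log2 scale for 92 genes (0.826%), and *Rnase4* was one of them, at -0.91, while the 3 *Ang* probe sets stood at -0.73, -0.96 and -0.41.

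The rest of the array gives the setting for these values. The 3'/5' signal ratios of the control genes were alike, from 1.72 to 1.73 for actin and from 0.732 to 0.782 for Gapdh, and median signals ranged from 102 to 106 in the cardio-renal arrays, against 100.1 with uninephrectomy alone. The cardio-renal arrays differed from each other at least 2-fold for 111 genes, array 1 differed from uninephrectomy for 122 genes, and array 2 for 46. With limma's moderated test over all 11144 genes and Benjamini-Hochberg adjustment at 0.05, 0 genes (0.0%) were called lower or higher. Every measured marker of proximal tubule (8), thick ascending limb (4), distal tubule and collecting duct (5) and podocytes (4) was among the genes kept. So were 11144 of all 18193 genes, and so this by itself does not identify the tissue.

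Of the RNase A superfamily, *Ang* and *Rnase4* were the only members whose signal reached the level for keeping. The list had 24 genes, 11 of which had a named probe set on this array, and the other 9 of these were dim on all 3 arrays. *Ang2*, a close paralog of *Ang*, had signals of 1.46 and 6.76 in the cardio-renal samples, against 15.1 with uninephrectomy alone. *Ang3* had signals of 7.92 and 24.0, against 11.2 with uninephrectomy alone. *Ang4*, a paralog made by intestinal Paneth cells, had 34.3 and 8.93, against 34.5 with uninephrectomy alone, at the brighter of its probe sets. Its dimmer probe set went the other way, at 12.02 and 22.2, against 6.34 with uninephrectomy alone. The paralogs' signals, at their own probe sets, showed no shared order of the samples. No detection calls were used here, and no change is read from signals this low.

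The more distant members were likewise dim. *Rnase1*, the pancreatic-type ribonuclease, had signals of 21.7 and 54.2 in the cardio-renal samples, against 9.76 with uninephrectomy alone, the opposite direction to *Ang*. *Rnase6*, an antibacterial ribonuclease of urinary tract and macrophages, had 70.7 and 66.8, against 78.2 with uninephrectomy alone, with log2 differences of -0.11 and -0.16. *Rnase10*, an epididymal member without ribonuclease activity, had 50.03 and 45.4, against 25.7 with uninephrectomy alone. The eosinophil-type members *Rnase2a*, *Rnase2b* and *Ear3* had signals of at most 29.1 on any array. Counted at the brightest probe set of each, 4 of the 9 dim members, *Rnase1*, *Rnase2b*, *Rnase10* and *Ear3*, were higher in both cardio-renal arrays, 3 were lower in both (*Ang2*, *Ang4*, whose other probe set was higher in both, and *Rnase6*) and 2 had opposite signs (*Ang3* and *Rnase2a*).

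**Figure D2:**
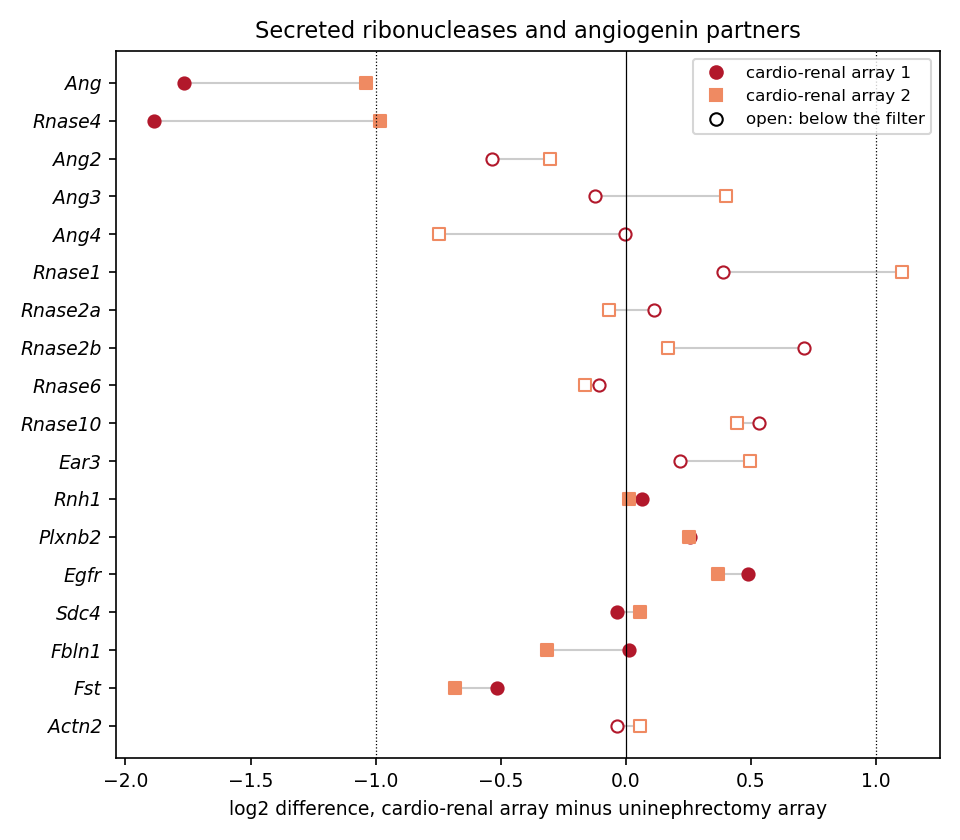
Log2 difference from the uninephrectomy array of cardio-renal array 1 (circles) and array 2 (squares) for *Ang* and *Rnase4*, the other measured secreted ribonucleases and the measured angiogenin partners; open symbols are genes below the level for keeping and dotted lines mark 2-fold. *Ang* and *Rnase4* lie at -1.77 and -1.89 in array 1 and at -1.04 and -0.98 in array 2, while *Rnh1*, *Plxnb2* and *Sdc4* lie within 0.26 of 0.

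The genes of proteins that bind angiogenin gave differences of both signs. *Rnh1*, the cytosolic ribonuclease inhibitor, had signals of 2839 and 2741 in the cardio-renal samples, against 2712 with uninephrectomy alone, a log2 difference of 0.04 ± 0.04 (SD, n = 2). *Plxnb2*, the angiogenin receptor, had signals of 1900 and 1895, against 1584 with uninephrectomy alone, a log2 difference of 0.26 ± 0.0023 (SD, n = 2). *Egfr*, the epidermal growth factor receptor, reported as an angiogenin receptor in human cancer cells, had signals of 1266 and 1164, against 894 with uninephrectomy alone, a log2 difference of 0.43 ± 0.08 (SD, n = 2), and its other probe sets at the level for keeping stood at 0.14 and 0.31. At their brightest probe sets both genes were higher in both cardio-renal arrays, as were 30.6% of all genes kept. *Egfr* probe sets below the level for keeping went both ways. A link between these values and those of *Ang* was not tested.

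*Sdc4*, a heparan sulfate proteoglycan of the cell surface, differed by -0.04 in array 1 and 0.06 in array 2, and its dimmer probe set was lower in both, at -0.08 and -0.25. *Fbln1*, the matrix protein fibulin 1, differed by 0.01 in array 1 and -0.31 in array 2, and its other probe set at the level for keeping was lower in both, at -0.20 and -0.46. *Fst*, which encodes the activin antagonist follistatin, had signals of 237 and 208 in the cardio-renal samples, against 351 with uninephrectomy alone, a log2 difference of -0.60 ± 0.12 (SD, n = 2), and its dimmer probe set, also lower in both, stood at -0.39. *Actn2*, muscle alpha actinin, was below the level for keeping. Counted at the brightest probe set of each, 1 of the 6 partners kept was lower in both arrays, 3 were higher in both and 2, *Sdc4* and *Fbln1*, had opposite signs, the median difference being 0.04 for array 1 and 0.04 for array 2; limma called 0 of them. Over all genes kept, 29.7% were lower in both and 30.6% higher in both, the median difference being 0.0085 for array 1 and -0.0028 for array 2.

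Genes of transfer RNA cutting and repair, the process angiogenin is known for, differed little. Of 11 kept, 3 were lower in both cardio-renal arrays, 1 was higher in both and 7 had opposite signs, the median difference being 0.02 for array 1 and -0.08 for array 2, and limma called 0. *Trdmt1*, a transfer RNA cytosine methyltransferase whose mark protects against cleavage by angiogenin, stood 0.18 ± 0.0027 above uninephrectomy (SD, n = 2). *Nsun2*, another such methyltransferase, differed by -0.01 in array 1 and 0.14 in array 2. *Tsen54*, a subunit of the endonuclease that removes transfer RNA introns, stood at -0.24 ± 0.08 (SD, n = 2). Among the schlafen genes, *Slfn8* and *Slfn9* were below the level for keeping and *Slfn2* stood at -0.02.

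Other nucleases, unrelated to the RNase A superfamily, gave differences of both signs. Of 16 kept, 5 were lower in both cardio-renal arrays, 4 were higher in both and 7 had opposite signs, the median difference being -0.05 for array 1 and 0.07 for array 2, and limma called 0. *Dnase1*, a secreted DNA-cutting enzyme abundant in mouse kidney, had signals of 12281 and 13464 in the cardio-renal samples, against 9479 with uninephrectomy alone, a log2 difference of 0.44 ± 0.09 (SD, n = 2). *Xrn2*, a nuclear exonuclease, stood at -0.27 ± 0.06, and *Rnaseh2a*, a subunit of the enzyme that cuts RNA in hybrids with DNA, stood at 0.27 ± 0.01 (SD, n = 2 each). *Ern1*, the endoplasmic reticulum stress sensor with its own ribonuclease domain, stood at -0.13 ± 0.15 (SD, n = 2). The cardio-renal arrays were furthest apart for *Dnase2a*, at -0.71 in array 1 and 0.35 in array 2, followed by *Xrn1*, at -0.41 and 0.11. All of these differences were smaller than those of *Ang* and *Rnase4*, which the choice of the pair for its low values makes likely.

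Transcription factors of the liver and proximal tubule, and others linked to the locus, gave 5 of 9 kept genes lower in both arrays, 3 higher in both and 1 of opposite signs, with 0 called by limma and median differences of -0.04 for array 1 and -0.08 for array 2. *Hnf4a*, a nuclear receptor of hepatocytes and proximal tubule, had signals of 9090 and 11048 in the cardio-renal samples, against 11680 with uninephrectomy alone, with differences of -0.36 in array 1 and -0.08 in array 2. *Hnf4a* thus had the same order of samples as the pair, at a smaller size, but 15.8% of all genes kept had that order. *Hnf4g*, its paralog, was higher, at 132 and 156, against 77.5 with uninephrectomy alone. *Cebpb*, an acute phase regulator, stood at 0.29 ± 0.20 and *Hif1a*, the hypoxia-inducible factor, at -0.20 ± 0.14 (SD, n = 2 each). *Ctcf*, the insulator protein, stood at -0.11 ± 0.02, and *Xbp1*, a transcription factor of the unfolded protein response, at -0.06 ± 0.02 (SD, n = 2 each).

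Other angiogenic factors gave differences of both signs. Of 15 kept, 4 were lower in both arrays, 5 were higher in both and 6 had opposite signs, the median difference being 0.12 for array 1 and -0.09 for array 2, and limma called 0. *Vegfa*, the vascular endothelial growth factor of podocytes and tubules, had signals of 2336 and 2028 in the cardio-renal samples, against 1831 with uninephrectomy alone, a log2 difference of 0.25 ± 0.14 (SD, n = 2). *Nrp1* and *Nrp2*, coreceptors for that family, stood at -0.23 ± 0.17 and -0.44 ± 0.40 (SD, n = 2 each). *Kdr*, the main receptor, stood at -0.13 ± 0.05 (SD, n = 2). *Pdgfb* and *Tek*, like *Vegfa* higher in both arrays, stood at 0.18 ± 0.07 and 0.17 ± 0.11 (SD, n = 2 each).

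Few of the genes next to the pair on chromosome 14 could be measured. Of 16 protein-coding genes, the nearest 8 on either side in the RefSeq order, 8 had a named probe set and 2 were kept. *Pip4p1*, a phosphatidylinositol bisphosphate phosphatase, had signals of 1043 and 1046 in the cardio-renal samples, against 1207 with uninephrectomy alone, a log2 difference of -0.20 ± 0.0024 (SD, n = 2). *Pnp*, purine nucleoside phosphorylase, had signals of 6135 and 7326, against 6702 with uninephrectomy alone, with differences of opposite sign, -0.13 in array 1 and 0.13 in array 2. Both kept neighbours differed less than *Ang* and *Rnase4*. As the pair was chosen for its low values, nothing is read from that. The other 6 with a probe set, *Rnase10*, *Rnase6*, *Rnase1*, *Rnase2b*, *Ang2* and *Rnase2a*, are the dim family members described above.

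The genes most like the pair were found by the distance between log2 differences, taken over the 2 cardio-renal arrays, from the mean of *Ang* and *Rnase4* at -1.83 and -1.01. *Ang* and *Rnase4* lay 0.13 apart on this measure. *Slc51a*, a subunit of the basolateral bile acid and steroid transporter, was nearest at 0.12, with signals of 1382 and 2651 in the cardio-renal samples, against 4952 with uninephrectomy alone. It was the 1 gene within 0.25 of the pair, and 6 genes lay within 0.5. *Serpinc1*, which encodes antithrombin, followed at 0.37, with signals of 175 and 317, against 564 with uninephrectomy alone. Next came *Ccl28*, a mucosal chemokine, at 0.40, with 170 and 293, against 529.7 with uninephrectomy alone.

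The remaining 5 lay between 0.47 and 0.53 from the pair. They were *Igha*, the immunoglobulin A heavy chain constant region, *Tstd2*, *Mfsd2a*, a transporter of lysophospholipids, *Slc22a19*, an organic anion transporter, and *Apcs*, the serum amyloid P component. For *Igha*, *Mfsd2a*, *Slc22a19* and *Apcs* the difference was -1.91 to -2.04 in array 1 but -0.50 to -0.59 in array 2, so these were lower than the pair in array 1 and nearer to uninephrectomy in array 2. Likeness over 3 arrays and 1 common uninephrectomy sample is a description of these samples.

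**Figure D3:**
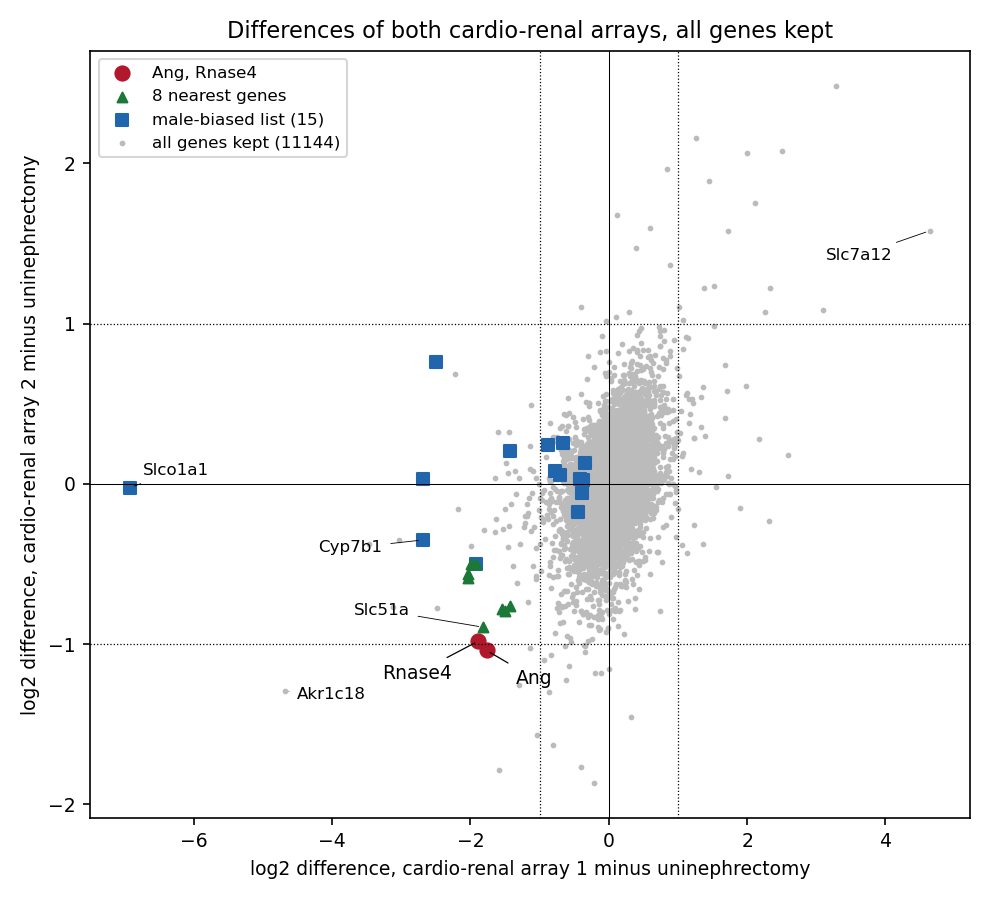
Log2 difference from the uninephrectomy array in cardio-renal array 1 (x axis) against array 2 (y axis) for the 11144 genes kept (grey). *Ang* and *Rnase4* are red circles and the 8 genes nearest to them green triangles. Blue squares are the 15 genes of the male-biased kidney list, and dotted lines mark 2-fold. *Ang* and *Rnase4* lie beside *Slc51a* in the lower left. Most genes of the male-biased list lie left of 0 and near 0 on the y axis. The list's median was -0.77 in array 1 and 0.03 in array 2.

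Sex-biased kidney genes set array 1 apart from the other 2 arrays, so their values stand beside those of the pair. Each of the 15 genes on the male-biased list stood below uninephrectomy in array 1, with a median of -0.77. In array 2 the median was 0.03, and 5 of the 15 were lower in both arrays. All samples were from male mice, so the sex bias of the listed genes, *Slc22a19* among them, was not checked here. *Slco1a1*, a carrier of organic anions that depends on androgens, had 22.5 and 6064 in the cardio-renal samples, against 6161 with uninephrectomy alone. *Cyp7b1*, an oxysterol hydroxylase, had 2003 and 10266, against 13094 with uninephrectomy alone. In array 2 the genes of the male-biased list ranged from -0.50 for *Slc22a19*, also one of the 8 genes nearest to the pair, to 0.76 for *Cyp4a12a*. There *Slco1a1* stood at -0.02 and *Cyp7b1* at -0.35. The female-biased list of 6 kept genes had 4 higher in both arrays and 2 lower in both, *Slc22a7* and *Akr1c18*. The list's median difference was 0.59 for array 1 and 0.15 for array 2. *Slc7a12*, the furthest of the 4 higher genes, stood at 4.64 in array 1 and 1.58 in array 2. *Akr1c18*, a hydroxysteroid dehydrogenase, stood lower than the pair in both arrays, at -4.68 in array 1 and -1.29 in array 2. The part of sex-biased expression in the pair's values was not tested.

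Markers of other tissues were set beside the pair, since in RNA from a whole kidney fewer cells of a type and less RNA per cell cannot be told apart. Hepatocytes make much *Ang* and *Rnase4*, and of 9 measured hepatocyte markers 3 were lower in both cardio-renal arrays, 2 were higher in both and 4 had opposite signs. Among the 5 of them kept, 2 were lower in both, 1 was higher in both and 2 had opposite signs. The summed signal of the 9 was 14225 and 15968 in the cardio-renal samples, against 14711 with uninephrectomy alone. Most of it came from *Ttr*, at 12522 and 14321, against 13426 with uninephrectomy alone. *Alb*, albumin, was higher, at 775 and 338, against 217 with uninephrectomy alone, and the hepatocyte gene *Ahsg* had a signal of at most 6.63 on any array. Proximal tubule markers, 8 of 8 kept, had a summed signal of 109469 and 125760, against 121682 with uninephrectomy alone, and median differences of -0.18 for array 1 and 0.06 for array 2.

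Macrophage markers had a summed signal of 6171 and 6749.9 in the cardio-renal samples, against 7340.1 with uninephrectomy alone, with 5 of 8 lower in both arrays and 3 higher in both. The largest part came from *Csf1r*, at 2845 and 3683, against 3708 with uninephrectomy alone. Its log2 difference was -0.38 in array 1 and -0.0094 in array 2, and with median centring these had opposite signs. Endothelial markers summed to 4508 and 4166, against 4412 with uninephrectomy alone, with 1 of 6 lower in both and 1 higher in both. Heart muscle markers stood in the opposite direction to the pair, with 10 of 10 higher in both cardio-renal arrays. Only 4 of the 10 were among the genes kept, and all 4 were higher in both. The summed signal of the 10 was 2361 and 1726, against 377 with uninephrectomy alone. Adipocyte markers, 6 measured, had 5 higher in both and 0 lower in both, with a summed signal of 4587 and 3798, against 4044 with uninephrectomy alone. Only 3 of these were among the genes kept, of which 2 were higher in both. The third, *Fabp4*, gave most of the sum, at 4226 and 3424, against 3829 with uninephrectomy alone, and had differences of opposite sign. Over all genes kept, 29.7% were lower in both arrays and 30.6% were higher in both. No marker in these lists had a signal of 0. The part of these cell types in the *Ang* and *Rnase4* values was not tested.

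**Figure D4:**
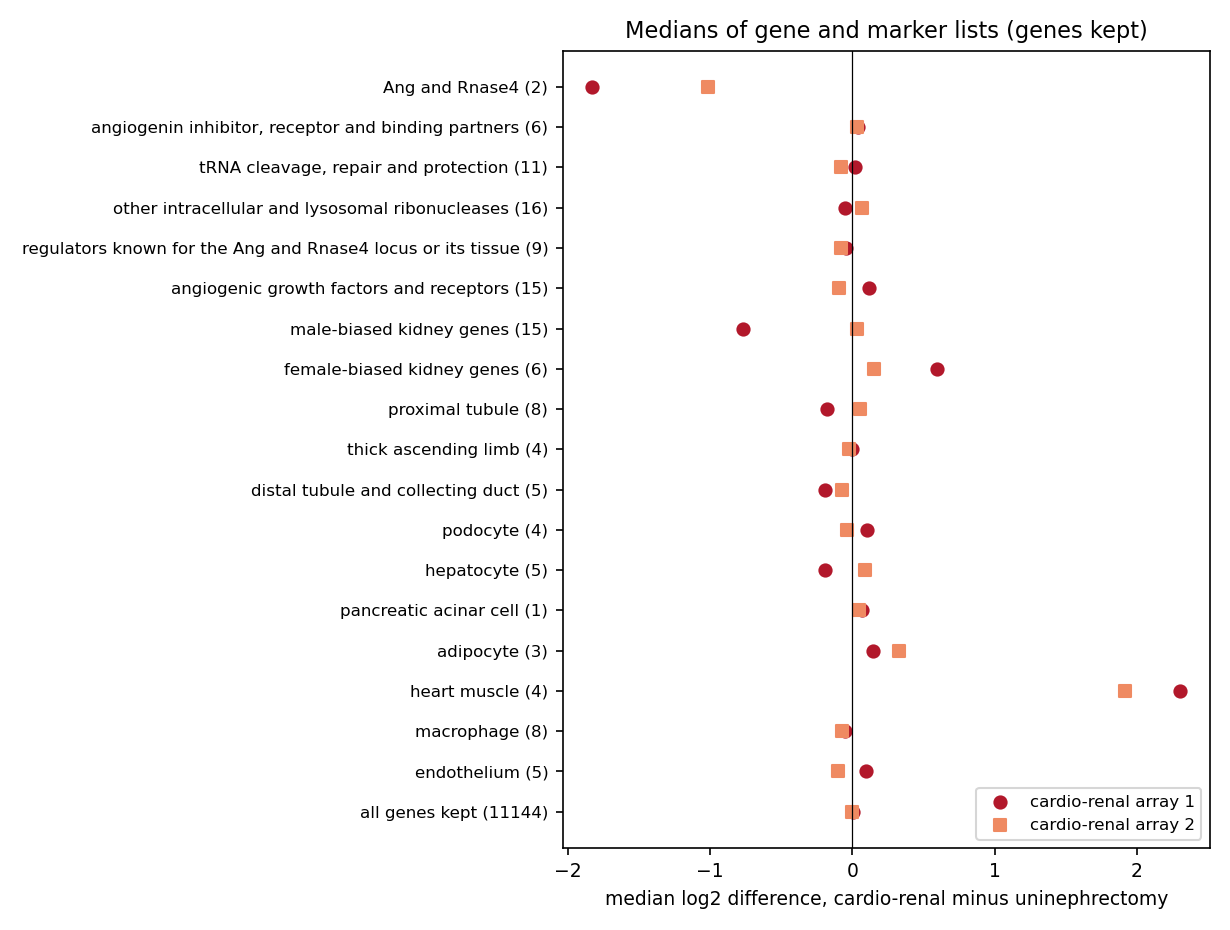
Median log2 difference from the uninephrectomy array in cardio-renal array 1 (circles) and array 2 (squares) for *Ang* and *Rnase4*, for each gene list and cell type marker list (number of genes kept in brackets) and for all genes kept. The pair lies at -1.83 and -1.01, the male-biased list is low in array 1 alone at -0.77, and heart muscle markers lie at 2.30 and 1.92.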

How the data were processed

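Biotin-labelled cRNA from 250 ng of total kidney RNA was made with a 3' in vitro transcription kit and read on 1 single-colour array for each of 3 samples, per the labels' protocols. The deposited values are intensities, MAS5 signals on a linear scale that the authors had scaled; MAS5 is named, without a version, in the submitters' processing notes. Each array's mean, trimmed by 2% at each end, was 500, so no further normalization was applied. The values carry no detection calls, and the number of arrays limits the precision.

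Of 45101 probe sets, 34945 had 1 gene, 932 several, 9160 none named here, and 64 were controls; symbols were updated through a RefSeq gene table (GRCm38.p6). Differences are of log2(signal + 28.8), where the offset is the 25th percentile of an array's signals (median of the 3 arrays). limma 3.58.1 in R 4.3.3 (lmFit, then eBayes with a trend) was fitted to all 11144 genes kept, two-sided. It had 1 residual degree of freedom, from the 2 cardio-renal arrays, and the lone uninephrectomy sample was assumed to vary like them. The fit was tried on simulated data with the same SD for every gene, unlike these data, so that trial gives no error rate for them. As no label says that the arrays hold separate mice, limma's p-values cover the spread between these samples alone, which may be technical. Both cardio-renal arrays are set against 1 uninephrectomy array, which by itself can give them a common direction.

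The members and the 8 gene and 11 marker lists were chosen with earlier results of these data known. Named genes were all probe sets of the pair, every measured member of the RNase A and partner lists, up to 6 genes of each other list of one sign in both cardio-renal arrays ranked by the smaller difference, the 8 genes on either side and the 8 nearest in pattern without predicted genes; other list genes were named for their role. Alternatives were other pseudocounts (1 and 100), scalings, filters and probe set rules, other limma settings, and leaving out each cardio-renal array.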

Additional observations from a re-analysis of the deposited data

How the results depend on the processing

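No paired analysis was possible because the labels give no pairing and there is 1 uninephrectomy array. The difference of the *Ang* probe set 1438936_s_at stayed between -1.77 and -1.04, and that of *Rnase4* between -1.89 and -0.98, under every alternative run on them; both extremes come from leaving out 1 cardio-renal array. Of the other *Ang* probe sets, 1438937_x_at ranged from -1.81 to -0.85 and 1450717_at from -1.42 to -0.85. The designed-for-1-target probe set gave -1.19 for *Ang*, and the mean of all 3 gave -1.31. *Ang* was no longer 2-fold lower in array 2 with a pseudocount of 100 (-0.98) or as the mean of its probe sets (-0.96); *Rnase4* stayed just short of 2-fold in all settings with both arrays. The count of genes at least 2-fold lower in both arrays, 6, became 3 with a pseudocount of 100, 18 without the filter and 3 with an upper quartile filter; without cardio-renal array 1 it was 22 and without array 2 it was 69. The count at least 2-fold higher, 15, became 8 with a pseudocount of 100, 74 without the filter, 2 with the upper quartile filter and 9 as a mean of probe sets; without cardio-renal array 1 it was 24 and without array 2 it was 53. Filters change the genes counted and leaving out an array removes a condition; the cause of the other changes was not tested. limma called 0 genes in either direction as reported and in each of the 9 alternative fits. Other scalings moved the median of all genes by under 0.1. With 3 arrays and no detection calls, signals of dim family members cannot be told from background.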
